A study of Mus musculus with 48 samples.

Results

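The sinusoidal endothelium of the mouse liver was followed through 10 genes known to mark it: Lyve1, Stab1, Stab2, Clec4g, Kdr, Pecam1, Cdh5, Mrc1, Fcgr2b and Oit3. The genes were picked by name from known markers, with earlier results of these data in view. All 10 were found among the 29331 gene symbols of the count table, and all 10 passed the filter on low counts in both sets of libraries tested. The samples were livers of wild-type male mice assigned to lipopolysaccharide (LPS), a component of bacterial outer membranes that triggers innate immune responses, or to a negative control (NC) group whose treatment the labels do not describe. LPS was given continuously over 7 consecutive days, by a route and at a dose that the labels do not state. On day 7 both arms were sampled at 6 Zeitgeber times (ZT, counted in hours from lights on), namely ZT1, ZT5, ZT9, ZT13, ZT17 and ZT21. LPS livers were also sampled at ZT21 on days 3 and 5, while LPS was given, and on days 9 and 11, after it had ended. No NC livers were labelled for those 4 days, so all 5 days at ZT21 were set against the same 3 NC libraries of day 7. Poly(A) RNA was sequenced in 48 libraries, 3 in each of the 16 groups.

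Sinusoidal endothelial cells line the capillaries of the liver. They lack a basement membrane, are pierced by open pores and take up macromolecules from portal blood through scavenger receptors. Lyve1 and Stab2 bind hyaluronan, Stab1 and Stab2 are the stabilin scavenger receptors, Mrc1 is the mannose receptor, Fcgr2b is the inhibitory receptor for IgG and captures immune complexes, and Clec4g is a C-type lectin. Kdr is the main signalling receptor for VEGF-A, whereas Pecam1 and Cdh5 are adhesion proteins of the junctions between endothelial cells. Oit3 encodes a protein with a zona pellucida domain. Some of these genes are not restricted to this cell type: Mrc1, Stab1 and Fcgr2b are also read in macrophages, Lyve1 in lymphatic vessels, and Pecam1, Cdh5 and Kdr in endothelium of every kind.

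Several libraries departed from their labels or from the rest. Total counts ran from 28.2 to 45.3 M per library, with a median of 32.9 M. A principal component analysis of day 7 set 4 LPS libraries apart, with scores of 69.4 to 92.8 on its first axis (13.2% of the variance) and 33.1 for the next library. They were ZT1 replicate 2, ZT13 replicate 2 and ZT21 replicates 1 and 3. By 12 clock genes, the day-3 libraries, all 3 labelled ZT21, lay nearest to NC at ZT5, and the day-5 libraries lay nearest to NC at ZT1 or ZT5. The labelled ZT was the nearest for 17 of 18 NC libraries and 14 of 18 LPS libraries of day 7. It was the nearest for 2 of 3 libraries on each of days 9 and 11. The day-7 exceptions were NC ZT13 replicate 3, LPS ZT5 replicate 2, LPS ZT13 replicate 3 and LPS ZT21 replicates 1 and 3. Those of days 9 and 11 were LPS day 9 replicate 3 and LPS day 11 replicate 2, both nearest to NC at ZT1. Results of day 7 are therefore given also without the 4 libraries, for the average over times of day and for ZT13. For days 3 and 5 they are given also against the NC libraries of the nearest clock time. Without the 4 libraries the LPS group at ZT21 held replicate 2 alone, and those at ZT1 and ZT13 lost replicate 2. No result at ZT21 is given for that fit, and its average rests on that library at ZT21. Libraries are labelled as biological replicates, with no animals named, and p-values describe only how these libraries spread.

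In GRCm38, 8 of the genes are read from the minus strand: Lyve1 on chromosome 7 (110850607 to 110863239), Stab1 on chromosome 14 (31139013 to 31168641), Stab2 on chromosome 10 (86841198 to 87008025) and Clec4g on chromosome 8 (3707064 to 3720651), as well as Kdr on chromosome 5 (75932827 to 75978458), Pecam1 on chromosome 11 (106654217 to 106750628), Fcgr2b on chromosome 1 (170958617 to 170976547) and Oit3 on chromosome 10 (59422958 to 59441778). On the plus strand are Cdh5 on chromosome 8 (104101625 to 104144511) and Mrc1 on chromosome 2 (14229392 to 14332057). Promoters are shown for 3 members whose levels are described below, the scavenger receptor gene Stab1, the lectin gene Clec4g and the VEGF receptor gene Kdr, because the members tended to be high in the same groups. RefSeq promoter entries (GRCm38.p6) were matched for 6 of the 10 members, namely Stab1, Stab2, Clec4g, Kdr, Mrc1 and Fcgr2b. The 250 bases before the gene start are printed in the direction of transcription, all 3 from the minus strand: Stab1 at chr14:31168642-31168891, Clec4g at chr8:3720652-3720901 and Kdr at chr5:75978456-75978705. Capitals mark the letters AGGAAG, a form of the sites of ETS factors, or their complement CTTCCT. Other forms of ETS sites were not searched for and are not marked.
Stab1: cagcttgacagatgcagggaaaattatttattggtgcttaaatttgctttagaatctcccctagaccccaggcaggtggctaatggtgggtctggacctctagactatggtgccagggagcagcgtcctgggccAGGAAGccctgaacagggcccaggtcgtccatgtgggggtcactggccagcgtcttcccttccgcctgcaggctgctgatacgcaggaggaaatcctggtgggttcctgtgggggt
Clec4g: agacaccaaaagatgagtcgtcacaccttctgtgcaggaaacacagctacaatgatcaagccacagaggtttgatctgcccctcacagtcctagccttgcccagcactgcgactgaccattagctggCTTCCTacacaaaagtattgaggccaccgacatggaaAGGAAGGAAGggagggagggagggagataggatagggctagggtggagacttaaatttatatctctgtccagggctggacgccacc
Kdr: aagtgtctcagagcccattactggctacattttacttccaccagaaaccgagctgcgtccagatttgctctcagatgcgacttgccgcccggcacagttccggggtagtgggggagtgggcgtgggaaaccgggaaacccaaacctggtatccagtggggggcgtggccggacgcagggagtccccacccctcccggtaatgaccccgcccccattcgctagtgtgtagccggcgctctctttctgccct
ETS factors such as Erg bind sites of this form in endothelial genes. The form AGGAAG was found 1 time in the Stab1 window, 3 times in the Clec4g window, where 2 matches overlap, and not in the Kdr window. On either strand it stood in 4 of the 6 member windows (Stab1, Stab2, Clec4g and Mrc1), against 29.5% of 32851 RefSeq promoter windows of the same length. The GATA letters AGATAA stood in 0 of the 6, against 9.99% of all windows, and the E-box CACGTG, which clock factors bind, in 0 of the 6, against 6.02%. These matches are descriptions of the sequence, not binding sites.

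All 10 genes were counted in every library, from 63 counts of Lyve1 in its lowest library to 4188 counts of Stab1 in its highest. Levels are given as CPM, which are counts divided by the TMM-scaled library size, and only levels per kilobase of annotated exon compare one gene with another. Per kilobase, Clec4g was the most abundant in the NC libraries of day 7, at 9.99 ± 1.99 CPM per kb (mean ± SD, n = 18). Oit3 followed at 4.87 ± 0.95, Fcgr2b at 4.45 ± 0.78, Stab1 at 4.16 ± 0.56, Stab2 at 3.83 ± 0.65 and Cdh5 at 3.57 ± 0.79 CPM per kb. Mrc1 had 3.04 ± 0.65, Kdr 2.49 ± 0.53, Lyve1 1.74 ± 0.81 and Pecam1 1.51 ± 0.30 CPM per kb. From Oit3 down to Pecam1, neighbours in this order differed by no more than the larger of their SDs, whereas Clec4g stood above Oit3 by more than both SDs. Lyve1 varied most between libraries, with a coefficient of variation of 46.4% in NC and 59.2% in LPS, and Stab1 least in NC, with 13.5%. In 4 of the genes exon bases are shared with a gene on the opposite strand. The largest overlap with a single exon of that gene was 112 bases for Stab1 (Nt5dc2) and 141 for Stab2 (Gm16268). It was 146 bases for Clec4g (Gm16553) and 155 for Fcgr2b (Gm38204). How strand was treated in counting is not known here, and reads over those bases cannot be assigned.

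The question of the day-7 collection was how LPS altered the liver around the clock. Averaged over the 6 times of day, 4 of the 10 genes rose in LPS livers and none fell: the hyaluronan receptor gene Lyve1, both stabilin genes and Oit3. Of all 16544 genes tested, 9.34% changed, 5.53% higher and 3.81% lower. The median log2 difference was 0.25 over the 10 genes and 0.01 over all tested genes, and 7 of the 10 had an unadjusted p under 0.05, as did 26.5% of all genes. In liver tissue, a change in the number of sinusoidal endothelial cells and a change in their RNA per cell cannot be told apart.

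Lyve1 ranged from 2.03 through a median of 4.63 to 12.6 CPM in the 18 NC libraries and from 4.25 through 7.44 to 27.0 CPM in the 18 LPS libraries. The arms overlapped, yet 16 of 18 LPS libraries lay above the NC mean of their own ZT. The difference was 0.77 ± 0.18 on the log2 scale (SE; edgeR quasi-likelihood test, Benjamini-Hochberg adjusted p = 0.011). Stab1 ranged from 34.3 through 42.1 to 56.8 CPM in NC and from 39.1 through 47.1 to 83.5 CPM in LPS, a difference of 0.29 ± 0.06 (edgeR adjusted p = 0.0042) that 15 of 18 LPS libraries showed. Stab2 ranged from 23.2 through 33.6 to 48.9 CPM in NC and from 30.9 through 39.6 to 62.9 CPM in LPS, a difference of 0.30 ± 0.07 (edgeR adjusted p = 0.013; 16 of 18). For both stabilin genes the arms overlapped. Oit3 ranged from 10.2 through 12.7 to 18.6 CPM in NC and from 10.1 through 15.3 to 23.0 CPM in LPS, a difference of 0.27 ± 0.08 (edgeR adjusted p = 0.030; 12 of 18).

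The other 6 genes did not pass in the average over times of day. Pecam1 stood at 0.28 (edgeR adjusted p = 0.094), Clec4g at 0.22 (edgeR adjusted p = 0.13), Cdh5 at 0.19 (edgeR adjusted p = 0.17), Fcgr2b at 0.13 (edgeR adjusted p = 0.20), Kdr at 0.10 (edgeR adjusted p = 0.36) and Mrc1, the gene nearest to no difference, at 0.05 (edgeR adjusted p = 0.73). Without the 4 libraries that stood apart, only Stab1 passed among the 10, at 0.25 (edgeR adjusted p = 0.015), when 2.99% of all genes did. Lyve1 then stood at 0.59 (edgeR adjusted p = 0.057), Stab2 at 0.22 (edgeR adjusted p = 0.066) and Oit3 at 0.22 (edgeR adjusted p = 0.12). With each of the 36 libraries left out in turn, Lyve1, Stab1 and Stab2 passed in all 36 fits and Oit3 in 32. It was lost without NC ZT5 replicate 2, NC ZT21 replicate 3, LPS ZT17 replicate 2 or LPS ZT21 replicate 3, with an edgeR adjusted p of up to 0.0532.

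**Figure D1:**
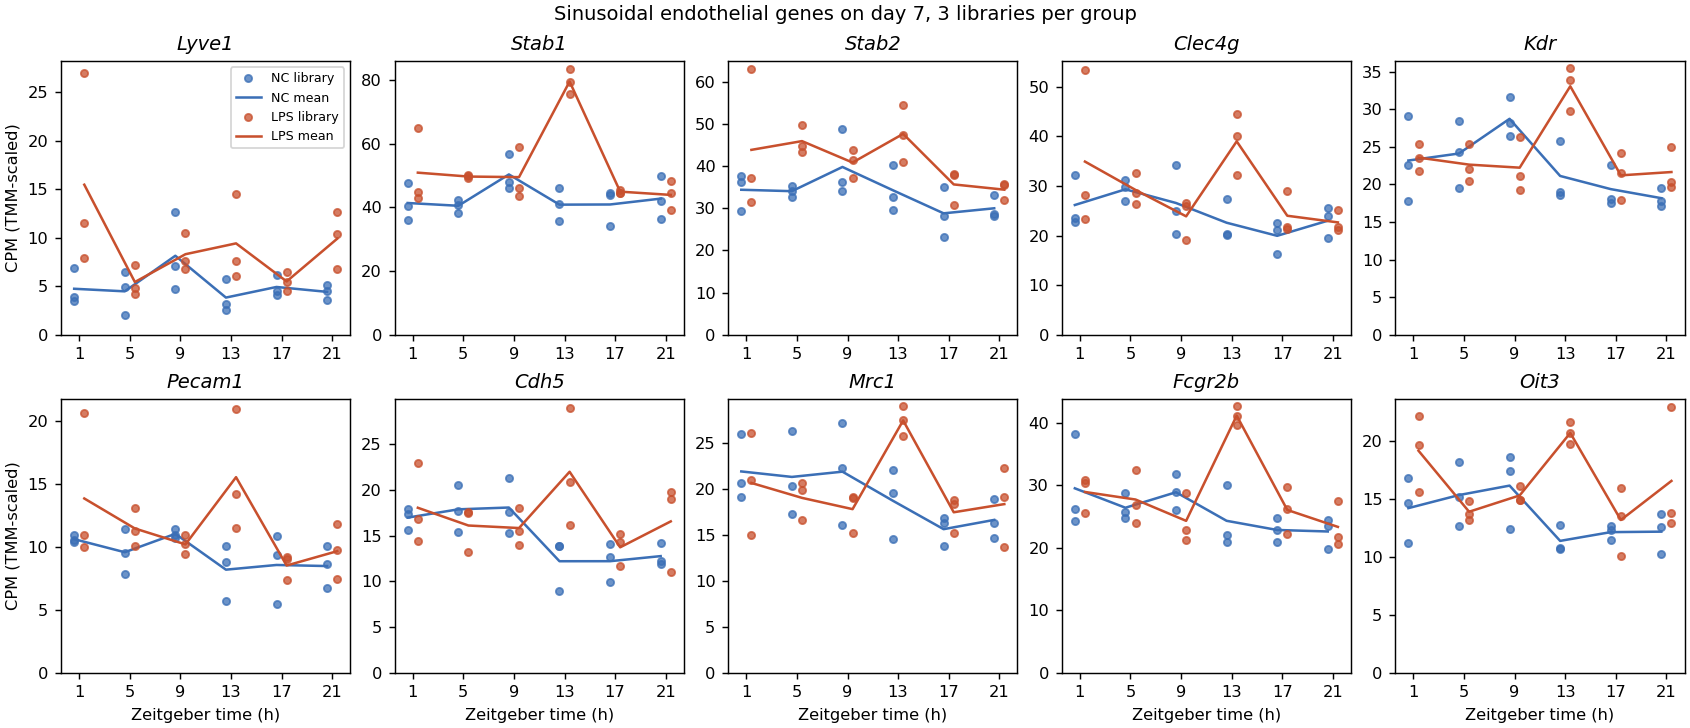
Levels of the 10 genes on day 7, in TMM-scaled CPM on linear axes from 0, against Zeitgeber time in hours. Each point is 1 library, 3 per group, and each line joins the group means of NC (blue) or LPS (red). At ZT13 the LPS points lie above the NC points in all 10 panels.

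At ZT13, 6 of the 10 genes rose in LPS livers and none fell: Stab1, Fcgr2b, Oit3, Kdr, Cdh5 and Pecam1. At that time 3.18% of all tested genes changed, 1.85% higher and 1.33% lower. For all 10 genes, each of the 3 LPS libraries lay above each of the 3 NC libraries, which held in this direction for 10.9% of all tested genes. The median log2 difference was 0.83 over the 10 genes and 0.04 over all tested genes.

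Among the scavenger and endocytic receptors, Stab1 was the clearest. Its NC libraries at ZT13 had 46.0, 40.9 and 35.6 CPM and its LPS libraries 83.5, 79.4 and 75.6 CPM. The next highest library of the 48 had 64.8 CPM of Stab1, so the LPS group at ZT13 overlapped with no other group. The difference was 0.97 ± 0.14 (SE, log2 scale, n = 3 libraries per group; edgeR adjusted p = 0.00052). Stab2, the other stabilin gene, had 40.4, 32.7 and 29.7 CPM in NC and 54.5, 47.4 and 41.1 CPM in LPS. Its lowest LPS library lay just above its highest NC library, and its difference of 0.49 ± 0.18 did not pass (edgeR adjusted p = 0.12). Fcgr2b, the inhibitory IgG receptor gene, had 30.1, 20.9 and 22 CPM in NC and 42.7, 39.7 and 41.1 CPM in LPS. Its LPS libraries were tightly grouped and high, with a difference of 0.77 ± 0.16 (edgeR adjusted p = 0.0094). Mrc1, the mannose receptor gene, had 22, 19.6 and 14.5 CPM in NC and 29.0, 27.6 and 25.8 CPM in LPS. The groups did not overlap, yet its difference of 0.57 ± 0.20 did not pass (edgeR adjusted p = 0.11).

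Lyve1 had 2.58, 5.78 and 3.13 CPM in NC at ZT13 and 6.09, 14.5 and 7.65 CPM in LPS. Replicate 2 was highest in both groups, and the difference of 1.32 ± 0.45, the largest of the 10, did not pass (edgeR adjusted p = 0.094) but did in DESeq2 (1.31, adjusted p = 0.042). The lectin gene Clec4g had 27.3, 20.1 and 20.3 CPM in NC and 44.6, 32.3 and 40.1 CPM in LPS. It missed the threshold narrowly, at 0.80 ± 0.23 (edgeR adjusted p = 0.051), and passed in DESeq2 (adjusted p = 0.021). Oit3 had 12.8, 10.7 and 10.7 CPM in NC and 21.6, 19.7 and 20.7 CPM in LPS. Both groups of Oit3 were narrow and well separated, with a difference of 0.87 ± 0.20 (edgeR adjusted p = 0.013).

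The genes of signalling and of cell junctions, which all endothelium shares, rose as well. Kdr, the VEGF receptor gene whose promoter window held no AGGAAG, had 25.8, 18.6 and 19.0 CPM in NC and 35.5, 33.9 and 29.8 CPM in LPS. Its difference was 0.66 ± 0.17 (edgeR adjusted p = 0.027). Cdh5, the VE-cadherin gene, had 13.8, 13.8 and 8.93 CPM in NC and 20.8, 28.9 and 16.2 CPM in LPS, a difference of 0.87 ± 0.22 (edgeR adjusted p = 0.030). Pecam1 had 10.1, 8.80 and 5.69 CPM in NC and 14.2, 21 and 11.5 CPM in LPS, a difference of 0.94 ± 0.26 (edgeR adjusted p = 0.045). For both junction genes the third NC library was the lowest and the second LPS library, which stood apart on the first principal component, the highest.

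DESeq2 called 8 of the 10 at ZT13, all but Stab2 and Mrc1, when it called 6.56% of all genes. The number of genes called at ZT13 depended on single libraries. Without NC ZT13 replicate 3 only Stab1 passed. By the clock genes that library was the 1 NC library nearest to another time than its label, ZT17 in place of ZT13. LPS ZT13 replicate 3 also lay nearest to NC at ZT17. With each of the 36 libraries left out in turn, Stab1 always passed, at an edgeR adjusted p of at most 0.010. Fcgr2b and Oit3 were lost without NC ZT13 replicate 2 or 3 (edgeR adjusted p up to 0.063 and 0.0695). Cdh5 was lost without NC ZT13 replicate 3 or LPS ZT13 replicate 2 (up to 0.24), Kdr without NC ZT13 replicate 2 or 3 or LPS ZT13 replicate 1 or 2 (up to 0.123), and Pecam1 in 18 of the 36 fits (up to 0.299). Without LPS ZT1 replicate 2, which is not a ZT13 library but shares in the estimate of spread, 8 passed. Without the 4 libraries that stood apart, 4 passed (Stab1, Fcgr2b, Oit3 and Clec4g) when 2.26% of all genes did, Cdh5 stood at 0.60 (edgeR adjusted p = 0.084), Pecam1 at 0.64 (edgeR adjusted p = 0.12) and Kdr at 0.63 (edgeR adjusted p = 0.069). In a fit of the 6 ZT13 libraries alone, none of the 10 and 0% of all genes passed, with Stab1 still at 0.96 (edgeR adjusted p = 0.18).

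**Figure D2:**
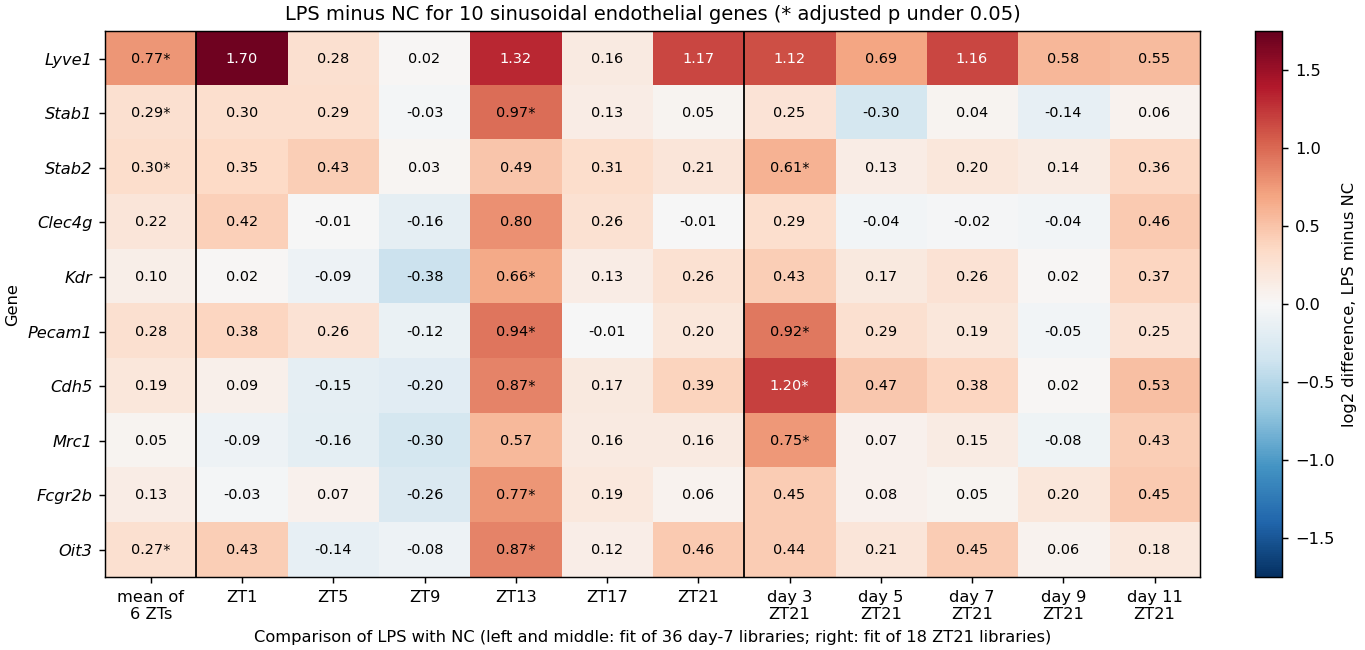
Log2 differences between LPS and NC for each gene (rows) in each comparison (columns), coloured from blue (lower in LPS) to red (higher in LPS), with the value printed and an asterisk where the edgeR adjusted p was under 0.05. All 10 values are above 0 in the columns of the average, ZT13, day 3 and day 11, with 4, 6, 4 and 0 asterisks.

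At the other 5 times of day none of the 10 genes passed. At ZT1, where 0.357% of all tested genes changed, the median of the 10 was 0.32 and 3 had an unadjusted p under 0.05 by edgeR (13.1% of all genes), as against 1 by adjusted p in DESeq2 (1.87% of all genes). Lyve1 had 3.46, 3.92 and 6.84 CPM in NC at ZT1 and 11.6, 27.0 and 7.87 CPM in LPS. It was the 1 member whose groups did not overlap, against 7.01% of all genes in that direction, and its difference of 1.70 ± 0.45 did not pass in edgeR (adjusted p = 0.079) but did in DESeq2 (adjusted p = 0.012) and in edgeR without LPS ZT1 replicate 1 or without replicate 3. LPS ZT1 replicate 2, 1 of the 4 libraries that stood apart, held the highest level on day 7 of Lyve1 (27.0 CPM), Stab2 (62.9 CPM) and Clec4g (53.3 CPM). The summed level of 14 Kupffer cell and macrophage markers was 334 to 385 CPM in NC and 214 to 855 CPM in LPS at ZT1, and that of 9 neutrophil markers 0.54 to 1.16 and 3.30 to 142 CPM. Their part in the Lyve1 values was not tested.

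At ZT5, where 0.0121% of all genes changed, the median of the 10 was 0.03 and 1 had an unadjusted p under 0.05 by edgeR (7.73% of all genes). Stab1 and Stab2 did not overlap between groups there, with LPS higher, against 9.90% of all genes. Stab2 had 34.0, 32.7 and 35.4 CPM in NC and 49.7, 44.7 and 43.4 CPM in LPS at ZT5, and passed in a fit of the 6 ZT5 libraries alone (0.43, edgeR adjusted p = 0.042; 0.879% of all genes). At ZT9, where 0.453% of all genes changed, 8 of the 10 differences were below 0, with a median of -0.14, and 1 of the 10 had an unadjusted p under 0.05 by edgeR (11.9% of all genes). Kdr was the 1 gene of the 10 whose LPS libraries at ZT9 (26.3, 21.1 and 19.3 CPM) all lay below its NC libraries (26.5, 28.1 and 31.6 CPM), which held for 10.7% of all genes. Its difference of -0.38 ± 0.17 did not pass (edgeR adjusted p = 0.35; unadjusted p = 0.031). At ZT17 0% of all genes passed by edgeR, with 1475 genes but none of the 10 at an unadjusted p under 0.05, and the median of the 10 was 0.16. At ZT21, where 8.90% of all genes changed, the median was 0.21, and Lyve1 and Kdr did not overlap between groups (12.5% of all genes, LPS higher). Lyve1 there had 5.10, 4.54 and 3.62 CPM in NC and 6.74, 10.3 and 12.6 CPM in LPS, a difference of 1.17 ± 0.45 (edgeR adjusted p = 0.10). At ZT21 2 of the 10 had an unadjusted p under 0.05 by edgeR, as did 24.5% of all genes. DESeq2 called none of the 10 at ZT5, ZT9, ZT17 or ZT21, when it called 0.296%, 1.67%, 0.26% and 11.9% of all genes. LPS ZT21 replicates 1 and 3 were among the libraries that stood apart, and all shares of genes given for LPS on day 7 at ZT21 include them.

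Whether the LPS difference varied with the time of day was tested directly. Of the 10 genes Stab1 alone passed (edgeR adjusted p = 0.0419), when 1.70% of all genes did, and 5 of the 10 had an unadjusted p under 0.05, as did 22.1% of all genes. For Stab1 the difference was 0.97 at ZT13 and between -0.03 and 0.30 at the other 5 times. Fcgr2b (edgeR adjusted p = 0.087), Kdr (edgeR adjusted p = 0.090) and Oit3 (edgeR adjusted p = 0.115) were next. The Stab1 call was absent without the filter on low counts and in 25 of 36 fits with a single library left out. DESeq2 called 4 of the 10 and 9.97% of all genes.

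A 24 h rhythm was tested by a cosine fit within each arm. In NC 2 of the 10 passed, Kdr (edgeR adjusted p = 0.028) and Cdh5 (edgeR adjusted p = 0.031), a share close to the 22.5% of all genes. The fitted curve of Cdh5 had a peak-to-trough difference of 0.70 on the log2 scale with its peak 5.00 h after lights on, and that of Kdr 0.56 with its peak at 7.28 h. The fitted NC peaks of the 10 genes fell between 4.94 and 8.94 h, although 8 of these fits did not pass. Neither Kdr nor Cdh5 passed without NC ZT5 replicate 3, and 1 of them was lost without any of 6 other NC libraries (ZT9 replicates 2 and 3, ZT17 replicates 1 and 3 and ZT21 replicates 2 and 3). In LPS none of the 10 passed, when 16% of all genes did, and 1 of the 10 had an unadjusted p under 0.05, as did 30% of all genes. The fitted difference in LPS was 0.15 for Cdh5 and 0.32 for Kdr. DESeq2 called 1 of the 10 in LPS (18.7% of all genes), and edgeR called 2 without LPS ZT1 replicate 2 and 1 without LPS ZT9 replicate 1, ZT9 replicate 2 or ZT17 replicate 2. The change of rhythm itself passed for none of the 10 by edgeR or DESeq2. It passed for 0.169% of all genes by edgeR and 1.73% by DESeq2. The 1 unadjusted p under 0.05, reached by 14.8% of all genes, was that of Kdr (0.049, edgeR adjusted p = 0.34), and Cdh5 had an edgeR adjusted p of 0.35. A test for any difference between the 6 times, added after the data had been seen, called Kdr in NC (edgeR adjusted p = 0.033; 18.9% of all genes). In LPS it called 5 genes (25.3% of all genes): Stab1 (edgeR adjusted p = 0.00027), Fcgr2b (edgeR adjusted p = 0.0026), Kdr (edgeR adjusted p = 0.018), Clec4g (edgeR adjusted p = 0.029) and Oit3 (edgeR adjusted p = 0.045). In each of these 5 the LPS group with the highest mean was ZT13.

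The collection at ZT21 followed the genes through and after LPS. On day 3, 4 of the 10 rose against NC at ZT21 and none fell: Cdh5, Mrc1, Pecam1 and Stab2. Of the 16101 genes tested, 20.5% changed, 10.3% in each direction. The LPS libraries of 8 genes all lay above their NC libraries, which held for 20.7% of all genes. The median difference was 0.53 over the 10 and 0.01 over all tested genes.

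Cdh5, the VE-cadherin gene, had 14.2, 12.2 and 11.9 CPM in NC and 25.8, 31.5 and 30.8 CPM on day 3, all above the highest NC library of any time of day (21.3 CPM). The difference was 1.20 ± 0.20 (edgeR adjusted p = 0.00062). Mrc1 had 18.9, 16.3 and 14.7 CPM in NC and 26.8, 32.6 and 25.2 CPM on day 3, a difference of 0.75 ± 0.19 (edgeR adjusted p = 0.010). Pecam1 had 10.1, 8.62 and 6.69 CPM in NC and 11.4, 17.2 and 19.6 CPM on day 3, a difference of 0.92 ± 0.26 (edgeR adjusted p = 0.020). The day-3 libraries of Mrc1 and Pecam1 all exceeded NC at ZT21, but their lowest lay within the range of NC at other times. Stab2 had 28.2, 33.2 and 28.6 CPM in NC and 48.3, 52.9 and 36.9 CPM on day 3, a difference of 0.61 ± 0.17 (edgeR adjusted p = 0.021). Lyve1 had 9.82, 8.87 and 10.3 CPM on day 3, well above its NC libraries at ZT21, but did not pass (1.12 ± 0.42, edgeR adjusted p = 0.069). It was the 1 further gene that DESeq2 called on day 3 (adjusted p = 0.023), which made 5 of the 10 when DESeq2 called 23.7% of all genes. Stab1, the gene that stood out at ZT13, had 53.8, 50.5 and 48.3 CPM against 42.0, 49.8 and 36.5 CPM and overlapped with NC (0.25, edgeR adjusted p = 0.345). The remaining 4, Clec4g, Kdr, Fcgr2b and Oit3, had differences of 0.29 to 0.45 without passing.

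Against the NC libraries of ZT5, whose clock genes lay nearest to those of day 3, only Cdh5 passed among the 10, at 0.72 (edgeR adjusted p = 0.029), when 7.31% of all genes did. Pecam1 then stood at 0.75 (edgeR adjusted p = 0.079), Stab2 at 0.43 (edgeR adjusted p = 0.17) and Mrc1 at 0.40 (edgeR adjusted p = 0.23). Against all 18 NC libraries, a comparison added after the data had been seen, Cdh5, Pecam1, Mrc1, Stab2 and Lyve1 passed, at 0.99, 0.78, 0.56, 0.46 and 0.97, when 22.6% of all genes did. With each of the 18 libraries left out in turn, Cdh5 passed in all 18 fits, and 1 of the 10 passed without NC ZT21 replicate 3 as against 6 without LPS day 9 replicate 3. Mrc1 was lost in 1 of the 18, and Stab2 and Pecam1 in 4 each, all of them fits without an NC library or a library of day 3. Among the Kupffer cell and macrophage markers, of cells that also express Mrc1, Stab1 and Fcgr2b, 11 of 14 rose on day 3 and none fell, with a median of 1.45. Their summed level was 789 to 960 CPM on day 3 and 226 to 345 CPM in NC at ZT21, with no marker at 0. Of 9 neutrophil markers 8 rose (median 5.95), with a summed level of 17.6 to 24.5 CPM on day 3 and 0.28 to 0.63 CPM in NC at ZT21. Of 11 stellate cell markers Pdgfrb (0.85), Col1a1 (1.26) and Col3a1 (0.96) rose and Ecm1 fell (-0.64), with sums of 293 to 438 and 303 to 353 CPM. The part of these cells in the results for Mrc1 and the other members was not tested.

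**Figure D3:**
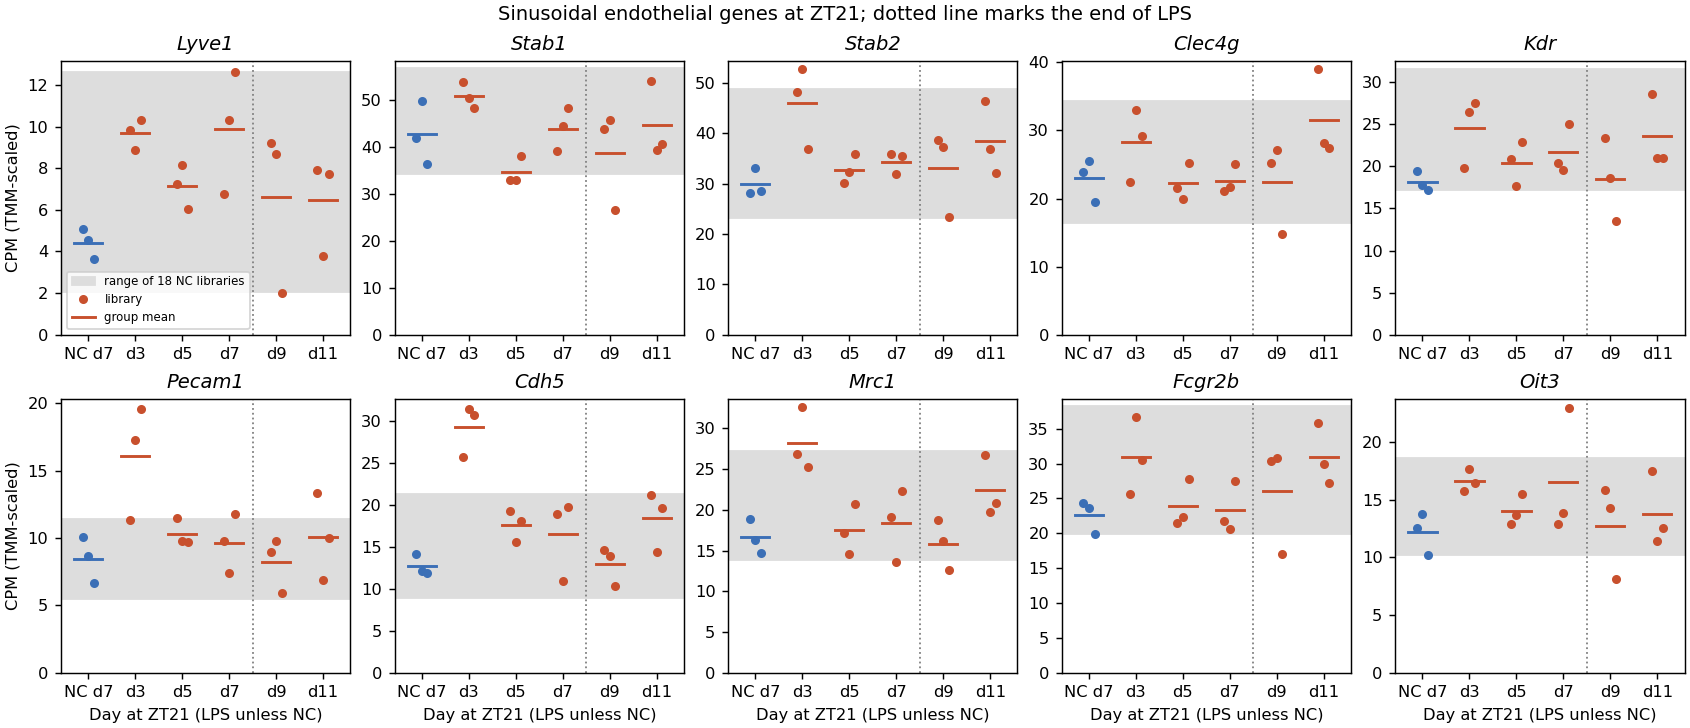
Levels of the 10 genes at ZT21, in TMM-scaled CPM on linear axes from 0, for NC on day 7 (blue) and LPS on days 3, 5, 7, 9 and 11 (red), with each of the 3 libraries as a point and the group mean as a bar. The grey band is the range of the 18 NC libraries of day 7 at all 6 times, and the dotted line marks the end of LPS. All day-3 points of Cdh5 lie above the band.

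On day 5, when 11.6% of all genes differed from NC at ZT21, none of the 10 passed, 1 had an unadjusted p under 0.05 by edgeR (27.6% of all genes) and the median difference was 0.15. Cdh5 had 19.3, 15.6 and 18.1 CPM, still above all 3 NC libraries at ZT21, and Lyve1 7.25, 8.16 and 6.02 CPM likewise, which held for 17.4% of all genes. Stab1 was at its lowest group mean of the study on day 5, at 34.7 ± 2.90 CPM (SD, n = 3), with a difference of -0.30 that did not pass (edgeR adjusted p = 0.28). Against NC at ZT1, the nearest clock time of 2 of the 3 libraries (ZT5 for replicate 3), none of the 10 passed either, when 3.12% of all genes did, and 8 of the 10 differences were then below 0. On day 7 at ZT21, in the fit of the 18 ZT21 libraries, none passed when 9.42% of all genes did, and 1 had an unadjusted p under 0.05 (26.3% of all genes). Without LPS ZT21 replicate 2, Cdh5 passed on days 5 and 7. The LPS group of day 7 then held only replicates 1 and 3, both among the libraries that stood apart. With all libraries, Lyve1 passed on day 7 in DESeq2 (1.17, adjusted p = 0.030; 14.2% of all genes), and it passed in edgeR without LPS day 9 replicate 3.

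After LPS had ended none of the 10 genes passed against NC, by edgeR or DESeq2. Of all genes, DESeq2 called 1.87% on day 9 and 1.02% on day 11. On day 9, 0.429% of all genes changed, none of the 10 passed or had an unadjusted p under 0.05 by edgeR (10.3% of all genes), and the median difference was 0.02. Replicate 3 of day 9 was the lowest of its group for all 10 genes, with 1.99 CPM of Lyve1 against 9.21 and 8.69 CPM, and 26.6 CPM of Stab1 against 43.8 and 45.8 CPM. By the clock genes that library lay nearest to NC at ZT1, not ZT21. On day 11, 0.261% of all genes changed and 4 of the 10 had an unadjusted p under 0.05 by edgeR, as did 8.65% of all genes. All 10 differences were above 0 and the median was 0.40. The day-11 libraries of 5 genes, Clec4g, Kdr, Cdh5, Mrc1 and Fcgr2b, all lay above NC at ZT21, against 7.89% of all genes. Clec4g, for example, had 39.0, 28.2 and 27.4 CPM on day 11 and 24, 25.5 and 19.5 CPM in NC at ZT21. Against all 18 NC libraries, a comparison added after the data had been seen, none of the 10 passed, when 0.480% of all genes did. The day-11 differences then ran from 0.04 (Oit3) to 0.39 (Lyve1), with Kdr at 0.09, Mrc1 at 0.23, Fcgr2b at 0.27, Cdh5 at 0.32 and Clec4g at 0.37. Day 9 against day 7 within LPS gave 6.73% of all genes by edgeR and 11.4% by DESeq2, and none of the 10 by either. By edgeR, 0 of the 10 had an unadjusted p under 0.05 (24.4% of all genes). Cdh5 passed in edgeR without LPS ZT21 replicate 2. The LPS group of day 7 then held only replicates 1 and 3, both among the libraries that stood apart. Differences among the 5 LPS days, a test of LPS means alone in which the NC libraries share only in the estimate of spread, passed for Cdh5 (edgeR adjusted p = 0.0039) and Mrc1 (edgeR adjusted p = 0.017), when 27.4% of all genes did. Without LPS day 3 replicate 2, 1 of the 10 passed.

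The other endothelial genes are set beside the members as lists chosen by cell type, read only in the fits with no library left out. At ZT13, 12 of 18 general endothelial genes rose and none fell, with a median of 0.98. They included the flow-responsive transcription factor gene Klf2 (1.82, edgeR adjusted p = 4.9e-05), Egfl7, a secreted endothelial protein (1.18, edgeR adjusted p = 5.3e-05), the junction gene Esam (1.37, edgeR adjusted p = 5.8e-05) and the receptor gene Tie1 (0.92, edgeR adjusted p = 0.00052). Of 16 tested among 18 further sinusoidal genes, 5 rose and none fell, with a median of 0.71: the VEGF-C receptor gene Flt4 (1.05), the tight junction gene Cldn5 (1.49), the receptor gene Gpr182 (1.10), the nuclease gene Dnase1l3 (0.96) and the coagulation inhibitor gene Tfpi (0.83). Of 12 genes of large vessels and other capillaries, 4 rose (Efnb2, Aqp1, Cd34 and Gja5), with a median of 0.67. Genes that rose at ZT13 thus came from the sinusoidal, the general and the large-vessel list. Of 13 genes listed for the VEGF and angiopoietin pathway, to which Kdr belongs, 12 were tested. Those that rose, Tie1, Flt4 and Flt1, also stand in the general or the sinusoidal list above. The co-receptor gene Nrp1 fell by 0.85 (edgeR adjusted p = 0.0037).

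Markers of other liver cells were measured in the same libraries. At ZT13 none of the 14 Kupffer cell and macrophage markers (median 0.36), 11 stellate cell markers (median 0.50), 9 hepatocyte markers (median -0.01), 9 neutrophil markers (median 3.12) or 8 proliferation genes (median 1.39) passed. Summed Kupffer cell markers were 257 to 422 CPM in NC and 399 to 543 CPM in LPS at ZT13, and stellate cell markers 253 to 400 and 367 to 934 CPM. Summed hepatocyte markers were 87155 to 107233 CPM in NC and 110421 to 120498 CPM in LPS, neutrophil markers 0.51 to 1.84 and 2.85 to 27.6 CPM, and proliferation genes 9.48 to 17.5 and 14.5 to 71.1 CPM. No Kupffer, stellate or hepatocyte marker was at 0 in these 6 libraries, and up to 6 of 9 neutrophil markers were at 0 in an NC library. The summed level of the 10 members was 170 to 231 CPM in NC and 310 to 352 CPM in LPS. The part of these other cells in the differences at ZT13 was not tested.

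**Figure D4:**
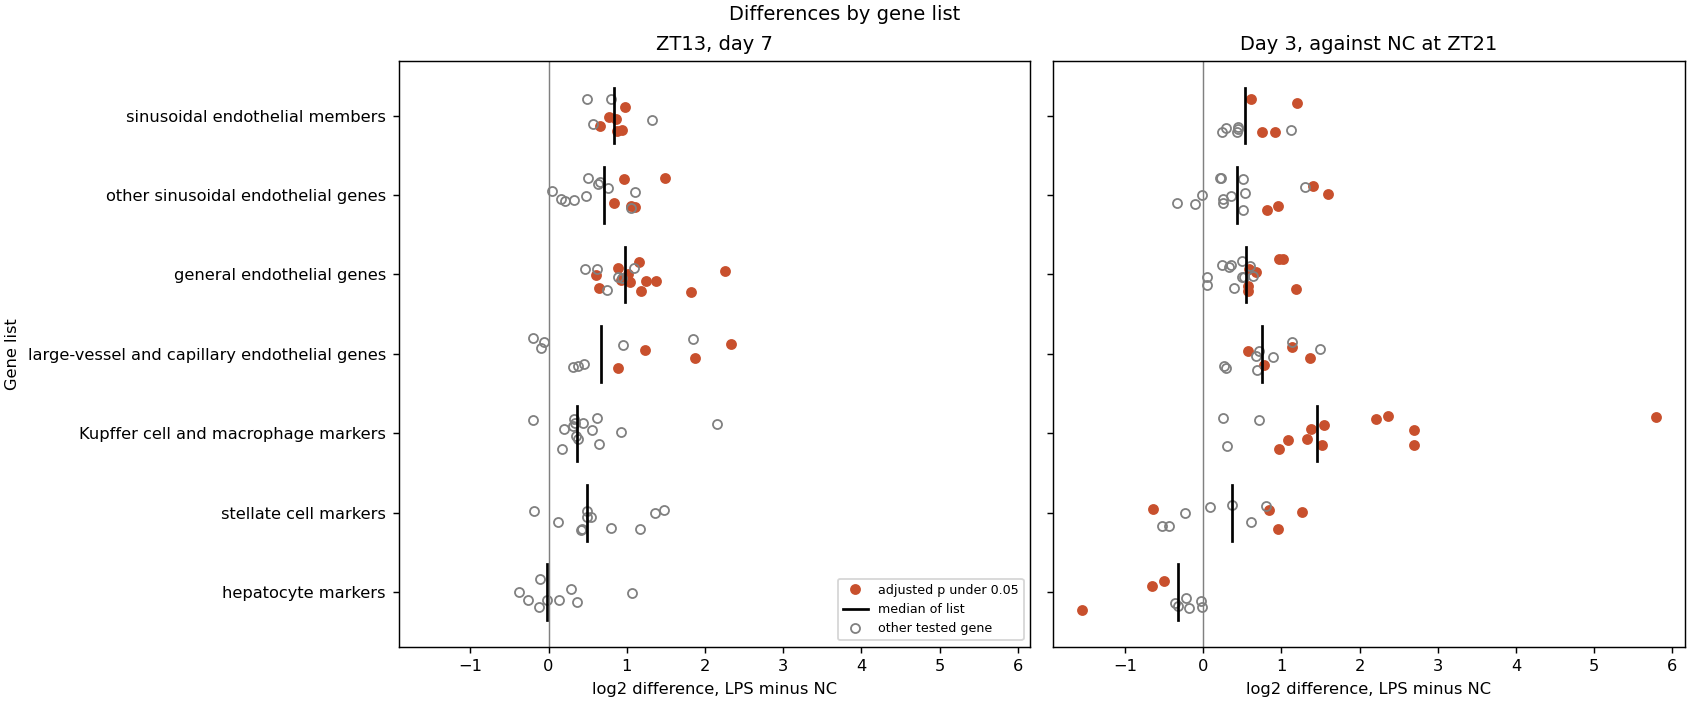
Log2 differences between LPS and NC at ZT13 on day 7 (left) and on day 3 against NC at ZT21 (right), for the 10 sinusoidal genes and 6 other gene lists, each point 1 tested gene. Filled red points have an edgeR adjusted p under 0.05, and the black bar is the median of the list. At ZT13 the endothelial lists hold red points and the Kupffer, stellate and hepatocyte lists none, whereas on day 3 the Kupffer list has the highest median of the lists shown, 1.45.

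In the average over times of day, 7 of 18 general endothelial genes rose, with a median of 0.29, among them Egfl7 (0.33, edgeR adjusted p = 0.0017), Klf2 (0.47, edgeR adjusted p = 0.0025), Tie1 (0.27) and the transcription factor gene Erg (0.37, edgeR adjusted p = 0.0082). Of the further sinusoidal genes 3 rose, the fatty acid transporter gene Cd36 (1.12, edgeR adjusted p = 0.0011), which hepatocytes and macrophages also express, Flt4 (0.30) and Gpr182 (0.32). Of the large-vessel genes Plvap and Aqp1 rose (0.26 each), and of the VEGF and angiopoietin pathway Nrp2 (0.50), Tie1 and Flt4. Kupffer cell markers that rose were Marco (2.47) and Lyz2 (0.50), 2 of 14, and 7 of 9 neutrophil markers and 8 of 8 proliferation genes rose. Summed neutrophil markers were 0.28 to 6.41 CPM in the 18 NC libraries and 1.57 to 142 CPM in the 18 LPS libraries of day 7. On day 3, 7 of 18 general endothelial genes rose, led by Sox18 (1.19) and Cd93 (1.01). The 4 of 16 further sinusoidal genes that rose were Il1a (1.6), Tfec (1.41), Cldn5 (0.96) and Tfpi (0.82), and the 4 of 12 large-vessel genes Ly6a (1.14), Aqp1 (0.58), Cd9 (0.78) and Gja5 (1.37), while 3 of 9 hepatocyte markers (Tat, Cyp2f2 and Ttr) fell. Summed hepatocyte markers were 80334 to 100407 CPM on day 3 and 108754 to 122985 CPM in NC at ZT21. The part of macrophages in the day-3 values of the endothelial lists, Il1a and Tfec among them, was not tested.

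The 10 genes had like profiles over the 16 group means. Averaged as standardized log2 levels, they were highest in LPS at ZT13 (2.01), followed by LPS on day 3 (1.24), LPS at ZT1 (0.89) and NC at ZT9 (0.54), and lowest in NC at ZT17 (-1.12). As a description over these 16 points, which share libraries within a group, Pearson's r of each gene with the mean of the other 9 ranged from 0.59 for Lyve1 to 0.92 for Pecam1. Among 16848 other genes, the 5 with the profile most like the mean of the 10 were Mmrn2 (r = 0.94), Eng (0.93), Itpkb (0.93), Aqp1 (0.93) and Grap (0.93). Mmrn2 and Eng stand in the list of general endothelial genes and Aqp1 in that of large vessels.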

How the data were processed

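Poly(A) RNA of mouse liver was sequenced in 48 libraries as 150 bp read pairs, with second strands marked by dUTP, per the labels' protocols. The authors deposited whole-number counts per gene symbol for 29331 genes, not scaled between libraries. Listed in the submitters' processing notes are GRCm38, STAR 2.5.2b, StringTie 2.2.1, SAMtools 1.3.1, FastQC 0.11.5 and DESeq2 1.38.1. What each was used for, how reads were counted and with which annotation and strand setting is not given in the sources used here. Reads shared between gene copies or overlapping genes could therefore have been split or lost in the counts.

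Each column of the table was tied to its library by the column name in the labels. Tests used edgeR 4.0.16 under R 4.3.3: filterByExpr, TMM scaling, robust quasi-likelihood tests and Benjamini-Hochberg adjustment over all tested genes at 0.05. The 36 day-7 libraries were fitted with 1 mean per group (16544 genes, 24 residual degrees of freedom), then with a 24 h cosine and sine per arm (30), and the 18 ZT21 libraries with 1 mean per group (16101 genes, 12). Differences are on the log2 scale with the fit's standard error (SE), and CPM use TMM-scaled library sizes. Depths ran from 28.2 to 45.3 M counts per library. No 2 libraries of a group agreed within counting noise: over 48 such pairs the lowest median chi-square per gene was 1.43, against 0.455 from noise. Figures were drawn with matplotlib 3.10.9. Gene positions and exon lengths came from the GENCODE M21 annotation of GRCm38.

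The 10 genes, the other gene lists, the 4 libraries left out and the controls of nearest clock time were chosen with earlier results of these data known. All 10 genes are named, and of each other list up to 4 genes with the smallest p-values in a comparison. Where a list had 5 called genes, all 5 are named. Alternatives were no filter on low counts, RLE scaling, DESeq2 1.42.0, a replicate block, all 48 libraries in 1 fit, the 6 libraries of a ZT alone, and each library left out in turn. A test of any difference between times and all 18 NC libraries as control were added after the data had been seen.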

Additional observations from a re-analysis of the deposited data

Results flagged for a closer look

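The difference between LPS and NC in Stab1, a stabilin scavenger receptor gene, varied between the 6 times of day: the test of the interaction of LPS with ZT gave an edgeR quasi-likelihood adjusted p of 0.0419. The difference was 0.97 ± 0.14 on the log2 scale at ZT13 (SE, 3 libraries per group, LPS higher in 3 of 3) and between -0.03 and 0.30 at the other 5 times. With each of the 36 libraries left out in turn, the call was lost in 25 fits. LPS ZT13 replicate 2 was 1 of the 4 libraries that stood apart, and its Stab1 level (79.4 CPM) was the middle of its group. Groups of 3 libraries are too small for a test of outlying values of a single gene, and none was run.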

How the results depend on the processing

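Of the 10 genes, the number called changed under these alternatives. Without the 4 LPS libraries that stood apart, 1 was called in the average over times of day in place of 4. DESeq2 called 1 at ZT1 in place of 0 (1.87% of all genes) and 4 in the interaction in place of 1 (9.97%). It also called 1 in the rhythm of LPS in place of 0 (18.7%) and 1 on day 7 at ZT21 in place of 0 (14.2%). The 6 libraries of a ZT alone gave 1 at ZT5 (Stab2, 0.43, edgeR adjusted p = 0.042; 0.879% of all genes) in place of 0 and 0 at ZT13 in place of 6. Without the filter on low counts the interaction gave 0 (0.473% of all genes). The test of any difference between times gave 1 in NC in place of 2 (18.9% of all genes) and 5 in LPS in place of 0 (25.3%). The nearest clock time as control gave 1 on day 3 in place of 4 (7.31%). Leaving out each library in turn gave 3 to 4 in the average, 0 to 1 at ZT1, 1 to 8 at ZT13, 0 to 4 in the interaction, 0 to 2 in the rhythm of NC, 0 to 2 in the rhythm of LPS, 1 to 6 on day 3, 0 to 1 on day 5, 0 to 1 on day 7 at ZT21, 1 to 3 among the LPS days and 0 to 1 for day 9 against day 7. Where these counts moved and no smaller number of samples or genes accounts for it, the cause was not tested. For the fits with a single library left out, here and above, the share of all genes called is not given. Moves of the 10 genes in those fits therefore cannot be told apart from moves of all genes. RLE scaling and the fit of all 48 libraries kept every count within 1.5 times, and no difference of a called gene changed sign under any alternative run. The replicate numbers did not pair the libraries: over 30 same-numbered pairs the correlation of deviations ran from -0.0587 to 0.0736. The replicate block kept the counts, 6 at ZT13 (3.56% of all genes), 4 in the average (9.00%) and 4 on day 3 (21.2%). With 3 libraries per group the spread limits what can be called, and the lowest member, Lyve1, had as few as 63 counts in a library.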

Other observations

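Beyond the genes described above, endothelial genes of the liver's zones and of activation gave these values. At ZT13 on day 7, 2 of 6 genes of periportal endothelium rose, the Notch ligand gene Dll4 (1.13, edgeR adjusted p = 0.0028) and Ltbp4 (0.99, edgeR adjusted p = 0.027), and 1 of 7 genes of pericentral endothelium, the fatty acid binding protein gene Fabp4 (1.46, edgeR adjusted p = 0.038). In the average over times of day Dll4 (0.29) and Fabp4 (0.51) rose, 1 gene of each list. On day 3, Dll4 (0.69) and the scavenger receptor gene Msr1 (1.07), 2 of 6 periportal genes, and Fabp4 (0.98) rose. Of the Kupffer cell and macrophage markers 11 of 14 rose on that day, and the part of macrophages in these values was not tested. At ZT13 none of 6 lymphatic endothelial genes (median 2.16) and none of 7 tested activation genes (median -0.09) passed. Up to 2 of the 6 lymphatic genes were at 0 in an NC library at ZT13. Their summed level was 78.3 to 116 CPM in NC and 98.4 to 123 CPM in LPS. On day 3, 2 of 7 activation genes rose against NC at ZT21, the leukocyte adhesion genes Icam1 (1.44, edgeR adjusted p = 2.5e-05) and Vcam1 (0.90, edgeR adjusted p = 0.012). Of 12 tested genes of the VEGF and angiopoietin pathway, the ligand genes Vegfb (-0.81, edgeR adjusted p = 0.0011) and Vegfa (-0.60, edgeR adjusted p = 0.0015) fell on day 3 and Vegfc rose (0.87, edgeR adjusted p = 0.0029). These comparisons use the NC libraries of ZT21, whereas the clock genes of the day-3 libraries lay nearest to NC at ZT5.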
